A study of Mus musculus with 16 samples.

Results

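Eph receptors and their membrane-bound ligands, the ephrins, were followed across the RNA-seq libraries of the series, as a family with members that set cell position along the crypt axis of the small intestine. The 9 genes were chosen by symbol: the receptors Ephb2, Ephb3, Ephb4, Epha1 and Epha2 and the ligands Efna1, Efna4, Efnb1 and Efnb2. They are 9 of 54643 genes listed in the 3 count tables taken as one, and each of them is present in every table and passed the filter on low counts in every experiment.

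Eph receptors are receptor tyrosine kinases that are activated when they meet ephrins on a neighbouring cell, and both cells then receive a signal, which often ends in repulsion. Ephrins of class A are held by a lipid anchor and bind mainly EphA receptors, while ephrins of class B span the membrane and bind mainly EphB receptors. In the intestinal epithelium, the receptors EphB2 and EphB3 are high near the crypt base, where Wnt signals maintain them, and ephrin-B1 and ephrin-B2 are high towards the villus. Mice that lack EphB2 and EphB3 misplace Paneth cells, the antimicrobial cells of the crypt base.

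All mice were C57BL/6, and the gene deleted was Cul4b, the X-linked gene of a scaffold protein of an E3 ubiquitin ligase. In KOIEC mice (pVillin-Cre; Cul4b fn/Y) the villin promoter drives Cre in the intestinal epithelium, so deletion is not limited to stem cells, and the WT mice compared with them carried the conditional allele without Cre (Cul4b fn/Y). KOIEC and WT were compared in 4 and 4 libraries of isolated crypts and in 2 and 2 libraries of organoids grown from crypts in Matrigel (IEC organoids). KOCAG organoids (CAG-CreERT2; Cul4b fn/Y), in which tamoxifen induces a Cre driven by a ubiquitous promoter, were compared with WT in 2 and 2 further libraries (CAG organoids); whether those WT organoids carried CreERT2 or received the drug is not given in the sources used here. Most experiments of the study used mice aged between 8 and 16 weeks, and the age behind each library is not given. Villi had been scraped off before crypts were released with EDTA.

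The depth was 7348191 to 16881395 counts per library, and the floor used here, 3 counts in a library, amounts to between 0.178 and 0.408 CPM (counts scaled to the same total in each library). The genotype labels fitted the targeted gene: Cul4b had 31.7 to 38.3 CPM in WT crypts and 0.848 to 2.21 CPM in KOIEC crypts, 73.2 to 83.2 against 1.69 to 1.76 CPM in IEC organoids, and 70.1 to 72.9 against 3.34 to 5.19 CPM in CAG organoids. The tissue label held for epithelium, with the adhesion gene Epcam at 1502 to 1623 CPM in every crypt library. Crypt libraries differed in mitochondrial ribosomal RNA, which was below 100 CPM in 1 WT and 3 KOIEC libraries, between 100 and 2000 CPM in 1 WT and 1 KOIEC library, and above 2000 CPM in 2 WT libraries. In IEC organoids, KOIEC replicate 2 stood apart from its partner, with 6 proliferation markers summing to 571 CPM against 1591 CPM. For each member the log2 difference within the low and the middle of these mitochondrial classes, with no test, and the value without KOIEC replicate 2 of the IEC organoids are given beside its result.

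The genes lie on 7 chromosomes (coordinates of GRCm38, as the tables give them, with the same start and end in GENCODE M21). Ephb2 (ENSMUSG00000028664) is at chr4:136647539-136835988 on the minus strand and Epha2 (ENSMUSG00000006445) at chr4:141301240-141329384 on the plus strand. Efna1 (ENSMUSG00000027954, chr3:89271733-89281142) and Efna4 (ENSMUSG00000028040, chr3:89333390-89338028) are close to each other on the minus strand of the same chromosome. Ephb3 (ENSMUSG00000005958) is at chr16:21204755-21223305 on the plus strand, Ephb4 (ENSMUSG00000029710) at chr5:137350109-137378669 on the plus strand, and Epha1 (ENSMUSG00000029859) at chr6:42358487-42373268 on the minus strand. Efnb1 (ENSMUSG00000031217) is at chrX:99136130-99148991 on the plus strand, on the same chromosome as Cul4b, and Efnb2 (ENSMUSG00000001300) at chr8:8617434-8661242 on the minus strand. The coding sequences of the 5 receptors run from 2931 to 2988 bases and those of the 4 ligands from 615 to 1035 bases.

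The promoter sequences of 4 members are shown because Ephb2 and Ephb3 are held to be Wnt targets and because Epha1 and Epha2 were the receptors that rose after deletion. Each is the 250 bases before a start site in RefSeq (GRCm38.p6), 5′ to 3′ on the strand of the gene, with capitals marking 2 kinds of motif on either strand. One is the TCF/LEF motif, searched in the spelling CTTTGAA, in its variant CTTTGAT, in a further form written CTTTGTA, and in the last of them, which is CTTTGTT. The other is the GC box, spelled GGGCGG. The regions are chr4:136836013-136836262 for Ephb2, chr16:21204545-21204794 for Ephb3, chr6:42373269-42373518 for Epha1 and chr4:141300971-141301220 for Epha2.
Ephb2: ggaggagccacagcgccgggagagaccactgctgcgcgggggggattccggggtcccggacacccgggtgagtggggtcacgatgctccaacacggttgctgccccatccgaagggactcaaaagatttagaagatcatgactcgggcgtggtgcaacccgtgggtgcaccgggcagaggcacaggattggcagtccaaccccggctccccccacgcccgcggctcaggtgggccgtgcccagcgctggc
Ephb3: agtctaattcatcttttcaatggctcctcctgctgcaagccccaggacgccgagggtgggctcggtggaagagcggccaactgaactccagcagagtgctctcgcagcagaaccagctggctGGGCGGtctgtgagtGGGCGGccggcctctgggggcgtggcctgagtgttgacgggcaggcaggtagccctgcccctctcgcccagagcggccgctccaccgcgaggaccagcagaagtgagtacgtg
Epha1: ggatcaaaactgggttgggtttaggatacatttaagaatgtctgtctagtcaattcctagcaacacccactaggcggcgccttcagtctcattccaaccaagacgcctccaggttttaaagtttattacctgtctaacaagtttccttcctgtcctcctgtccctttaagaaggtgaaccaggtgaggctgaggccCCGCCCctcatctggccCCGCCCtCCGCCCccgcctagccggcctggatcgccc
Epha2: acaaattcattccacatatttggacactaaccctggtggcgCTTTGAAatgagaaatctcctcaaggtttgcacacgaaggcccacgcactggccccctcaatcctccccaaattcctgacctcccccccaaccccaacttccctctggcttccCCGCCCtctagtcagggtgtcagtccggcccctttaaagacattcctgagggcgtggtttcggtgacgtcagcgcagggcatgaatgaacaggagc

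Neither Ephb2 nor Ephb3 held a TCF/LEF word in this window, where 14.8% of 32851 promoters of the same length did. The words were found in Epha2, 209 bases before the start site, and in Efna4, 177 bases before it on the opposite strand. GC boxes, held by 32.7% of those promoters, numbered 2 in Ephb3, 4 in Ephb4, 3 in Epha1, 1 in Epha2 and 3 in Efnb2, 1 and 2 in the 2 start sites of Efna1, and none in Ephb2, Efna4 and Efnb1. The 2 word sets share no letters by overlap in these sequences.

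Ephb2 was also a target of quantitative PCR in the study, with primers that lie on exon 3 of 4 annotated transcripts and bound 230 bases at chr4:136771398-136771627 (GRCm38). They are shown because they read a stretch shared by these transcripts, while the sequencing counts sum over all exons of the gene.
Ephb2 forward primer: gcggctacgacgagaacat
Ephb2 reverse primer: ggctaagtcaaaatcagcctca

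Levels of different genes were compared as CPM per kilobase of the gene length in the tables. In WT crypts, Ephb4 (36.4 ± 4.42 CPM per kilobase, SD, n = 4) and Efnb1 (33.8 ± 1.18) were the highest members and their ranges overlapped. Efna1 followed at 23.0 ± 5.03, and the other 6 members lay between 5.45 (Ephb3) and 12.0 CPM per kilobase (Efnb2), each overlapping its neighbour in the order. In both sets of WT organoids, Efna1 was the highest member, at 71.6 ± 4.95 CPM per kilobase (n = 2) in IEC organoids and 63.1 ± 4.56 (n = 2) in CAG organoids, and Epha2 the lowest, at 7.63 ± 1.09 and 7.43 ± 0.750. Ephb3 rose in this order from rank 9 in crypts to rank 5 in WT CAG organoids, at 16.6 ± 0.466 CPM per kilobase. The gene length of Ephb2 in the tables (12608 bases) is far above that of its basic transcript with the longest coding sequence (4804 bases), and with transcript lengths, an alternative added after the values were seen, Ephb2 moved from rank 6 to rank 4 in WT crypts, at 25.5 CPM per kilobase. The experiments were prepared separately, so these levels are set side by side and not tested between them.

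**Figure D1:**
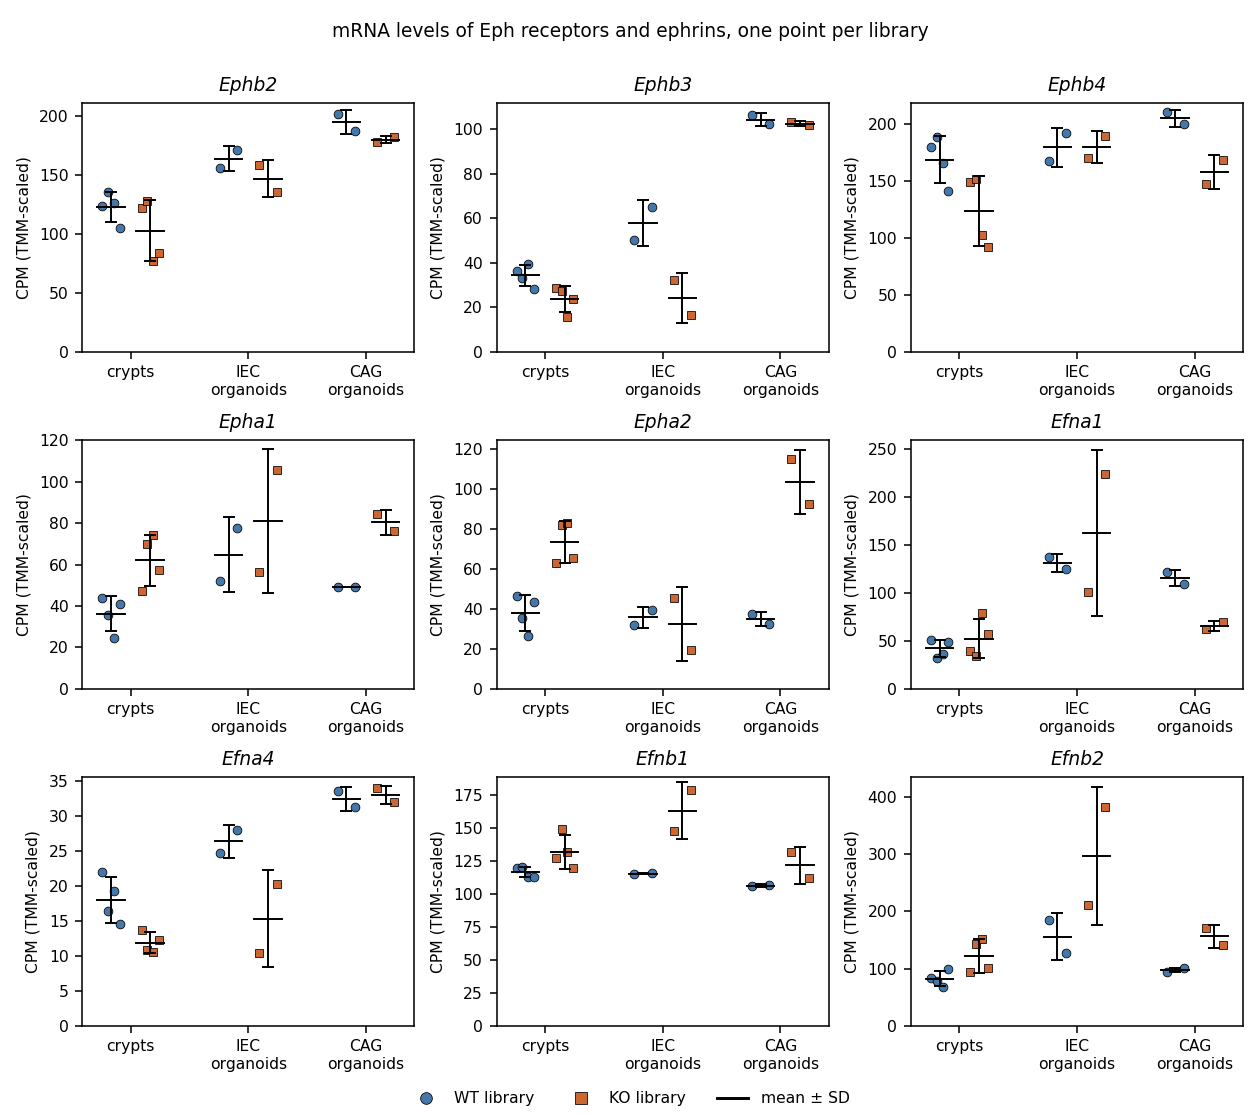
CPM (TMM-scaled, linear axes from 0) of the 9 genes in each library of crypts, IEC organoids and CAG organoids, with WT as circles, KO as squares and the mean ± SD as bars. Epha1 and Epha2 were higher in every KO than in every WT library in crypts and CAG organoids, and Ephb3 was lower in both KO libraries of IEC organoids.

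The deletion was tested within each experiment with the edgeR quasi-likelihood test, with p-values adjusted over all genes tested, and genes with an adjusted p under 0.05 are referred to as called. In crypts, 2 of the 9 members were called, Epha1 and Epha2, both higher in KOIEC, where 6.96% of 13427 genes were called (4.3% higher and 2.66% lower). Neither reached 2-fold, as 1.79% of genes did. In IEC organoids, none of the 9 was called, where 0.00717% of 13938 genes (1 gene, Cul4b) were, although 3 members had an unadjusted p under 0.05 against 4.66% of all genes. In CAG organoids, 5 of the 9 were called, where 31.5% of 13598 genes were (18.1% higher and 13.4% lower). These were Epha1, Epha2 and Efnb2, which were higher, and Ephb4 and Efna1, which were lower, and in 1 fit of all 16 libraries with a shared spread Epha2 alone of the 5 was called there. The median log2 fold change of the 9 members was 0.18 in crypts, 0.00 in IEC organoids and 0.02 in CAG organoids, beside -0.01, -0.01 and 0.00 for all genes tested.

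**Figure D2:**
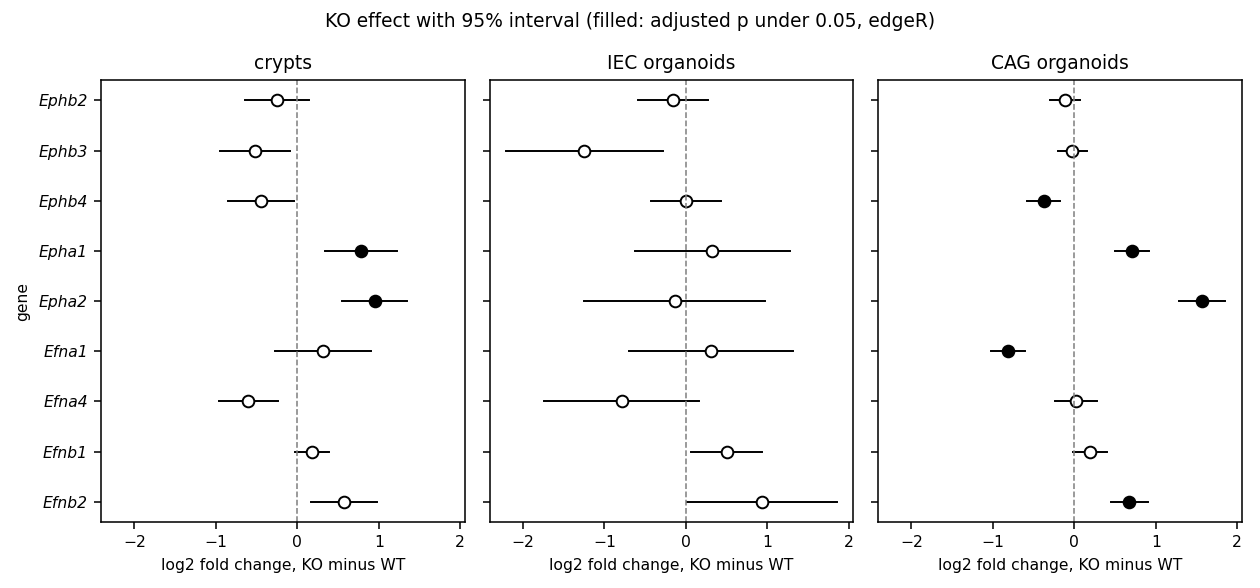
Log2 fold change of KO against WT for each gene in the 3 experiments, with the 95% interval of the edgeR fit, and filled points for an adjusted p under 0.05. Epha1 and Epha2 are the filled points in crypts, 5 genes are filled in CAG organoids and none in IEC organoids.

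Of the EphB receptors of the crypt base, Ephb2 had 124, 135, 126 and 105 CPM in the 4 WT crypt libraries and 122, 128, 77.2 and 83.6 CPM in the 4 KOIEC libraries. KOIEC replicates 3 and 4 were below every WT library, replicates 1 and 2 were inside the WT range, and the log2 fold change was -0.25 (95% interval -0.65 to 0.14). The exact permutation test of Ephb2 gave p = 0.229 over 70 splits, two-sided, and edgeR an adjusted p of 0.335. In IEC organoids Ephb2 had 156 and 171 CPM in WT and 158 and 135 CPM in KOIEC, and in CAG organoids 202 and 187 CPM in WT and 178 and 182 CPM in KOCAG. The log2 fold changes of Ephb2 there were -0.16 (interval -0.59 to 0.28) and -0.11 (interval -0.30 to 0.07), and neither passed the test (edgeR adjusted p = 0.858 and 0.319). Within the low and the middle mitochondrial class of the crypts, Ephb2 differed by -0.22 and -0.33 on the log2 scale, and without KOIEC replicate 2 its log2 fold change in IEC organoids was -0.047.

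Ephb3, the receptor that is also found on Paneth cells, had 36.4, 33.1, 39.6 and 28.1 CPM in WT crypts and 28.8, 27.3, 15.5 and 23.7 CPM in KOIEC crypts. Only KOIEC replicate 1 reached the WT range, by exceeding WT replicate 4, and the log2 fold change of -0.53 (SE 0.19) had an edgeR adjusted p of 0.100 and an exact permutation p of 0.0571. Ephb3 differed by -0.66 on the log2 scale in the low and by -0.25 in the middle mitochondrial class. In IEC organoids Ephb3 was at 50.3 and 65.0 CPM in WT and at 32.2 and 16.3 CPM in KOIEC, a log2 difference of -1.25 (SE 0.37), so that the groups did not overlap. The edgeR adjusted p of that difference was 0.856 (unadjusted p = 0.0207, edgeR). In CAG organoids Ephb3 differed by less than the spread between replicates, with 106 and 102 CPM in WT and 103 and 102 CPM in KOCAG (log2 fold change -0.02, interval -0.20 to 0.15).

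Markers of the other crypt-base cells were read beside Ephb3. In IEC organoids none of 8 stem cell markers and none of 7 Paneth cell markers was called. The summed CPM of the 8 stem cell markers there was 3447 and 4863 in WT and 2247 and 579 in KOIEC, the lowest being the library with the lowest Ephb3. The Paneth sums there were 2482 and 4136 CPM in WT and 1820.2 and 2395 CPM in KOIEC, and the lowest of them was KOIEC replicate 1, which had more Ephb3 than KOIEC replicate 2. In crypts 3 of 8 stem cell markers were called lower, where 2.66% of all genes were, and none of 7 Paneth markers was called. The Paneth sums ran from 10468 to 18889 CPM in WT crypts and were 12152.5, 7755, 2062 and 18109.6 CPM in KOIEC crypts, so that replicates 1 and 4 lay inside the WT range while replicate 3 was lowest, as it was for Ephb3. Fewer cells of a type and less RNA per cell cannot be told apart in bulk RNA, and the part of these markers in the values of Ephb3 was not tested. Without KOIEC replicate 1, which leaves the low-proliferation library as the lone KO sample and assumes that it varies like the WT group, Ephb3 in IEC organoids was called (log2 fold change -1.82, edgeR adjusted p = 0.00543); without KOIEC replicate 2 it was not (-0.84, edgeR adjusted p = 0.302).

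Ephb4, a receptor of ephrin-B2 best known from veins, had 179.6, 188, 166 and 141 CPM in WT crypts and 149, 151, 103 and 92.0 CPM in KOIEC crypts. The 2 groups overlapped and the log2 fold change of -0.45 (SE 0.18) did not pass the test (edgeR adjusted p = 0.122), with -0.44 in the low and -0.62 in the middle mitochondrial class. In CAG organoids Ephb4 fell from 211 and 199.8 CPM in WT to 148 and 168 CPM in KOCAG, a log2 fold change of -0.37 (SE 0.09, edgeR adjusted p = 0.0110), which missed the threshold without WT replicate 1, in a fit that leaves 1 WT library (-0.35, edgeR adjusted p = 0.0786). In IEC organoids the groups lay on each other, with 168 and 192 CPM in WT and 170.1 and 189.5 CPM in KOIEC (interval of the log2 fold change -0.43 to 0.43, and -0.078 without KOIEC replicate 2). The defining markers of endothelium, the vessel cells that carry Ephb4, were at or near 0: 6 of them summed to 0.846 to 2.09 CPM in crypt libraries and 0.473 to 2.31 CPM in organoids, with up to 4 of 6 at 0 in a library. Ephb4 shares 33 exonic bases with Zan on the opposite strand, whose level fell in CAG organoids (log2 fold change -1.04, edgeR adjusted p = 5.54e-05). Strand use of the counting is not given in the sources used here, so reads of that stretch cannot be told apart.

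Of the EphA receptors, Epha2, an epithelial receptor of ephrin-A1, rose in crypts and in CAG organoids. In crypts it had 46.5, 35.6, 26.6 and 43.3 CPM in WT and 63.1, 81.7, 83.1 and 65.4 CPM in KOIEC, with every KOIEC library above every WT library, as 17.5% of all genes tested showed such a separation in either direction. The log2 fold change of Epha2 in crypts was 0.95 (SE 0.18, edgeR adjusted p = 0.0394), and the exact permutation p of 0.0286 is the smallest that 70 splits can give. In CAG organoids Epha2 went from 37.2 and 32.3 CPM in WT to 115 and 92.2 CPM in KOCAG, a log2 fold change of 1.57 (SE 0.12, edgeR adjusted p = 2.44e-05), and it was the only member called at 2-fold or more, which 8.6% of genes tested there reached. In IEC organoids the KOIEC libraries lay on either side of WT, at 45.4 and 19.4 CPM against 32.1 and 39.3 CPM, and the interval of the log2 fold change was -1.25 to 0.98. It was 0.35 without KOIEC replicate 2 (edgeR adjusted p = 0.583) and -0.88 without KOIEC replicate 1, where the lone KOIEC library gave a call (edgeR adjusted p = 0.0319).

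Epha1, the other EphA receptor among the members, also rose in crypts and in CAG organoids. Its crypt values were 43.7, 35.7, 24.7 and 41.0 CPM in WT and 47.25, 70.2, 74.1 and 57.3 CPM in KOIEC, again without overlap, and the log2 fold change was 0.78 (SE 0.20, edgeR adjusted p = 0.0493, exact permutation p = 0.0286). In CAG organoids Epha1 had 49.0 and 49.1 CPM in WT and 84.5 and 76.3 CPM in KOCAG (log2 fold change 0.71, SE 0.09, edgeR adjusted p = 0.000432). IEC organoids gave 51.9 and 77.6 CPM in WT and 56.6 and 106 CPM in KOIEC, overlapping groups with a log2 fold change of 0.33 (interval -0.62 to 1.28), or -0.19 without KOIEC replicate 2. Epha1 overlaps Zyx, the gene of the focal adhesion protein zyxin, over 1727 bases on the opposite strand, 236 of them in exons of both. Zyx itself had a log2 fold change of 0.47 in crypts (edgeR adjusted p = 0.0881) and rose by 0.56 in CAG organoids (edgeR adjusted p = 0.00147), and reads of the shared exons cannot be told apart without strand.

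The level of enterocyte markers was read beside both EphA receptors. In crypts 12 enterocyte markers, none of them at 0, summed to 9312, 5347, 3834 and 14036 CPM in WT and 13056, 20435, 25931 and 25180.2 CPM in KOIEC, and their median log2 fold change was 1.46, with 1 of 12 called higher. Within the libraries below 100 CPM of mitochondrial ribosomal RNA (1 WT and 3 KOIEC) Epha2 differed by 0.70 and Epha1 by 0.52 on the log2 scale, and within those between 100 and 2000 CPM (1 and 1) by 0.60 and 0.48. With that class as a covariate the log2 fold changes were 0.66 for Epha2 and 0.52 for Epha1 (edgeR adjusted p = 0.208 and 0.266), in a fit where 2 genes of all were called. With the enterocyte level as a covariate they were 0.46 and 0.20 (edgeR adjusted p = 0.682 and 0.816), in a fit where 1 gene of all was called. That covariate was the mean log2 CPM of the 12 markers in each library and not their sum. The EphB receptors, which were not called in crypts without that covariate either, had log2 fold changes of 0.098 (Ephb2), -0.11 (Ephb3) and -0.13 (Ephb4) with it. Left out one at a time, each of WT replicates 1, 2 and 3 and KOIEC replicates 2 and 3 ended both calls, and KOIEC replicate 4 ended that of Epha1. Calls were lost across all genes in these fits, with 20, 3, 11, 2 and 2 genes called in that order. Without KOIEC replicate 4, 513 genes were called, against 934 in the main fit. The log2 fold changes stayed between 0.81 and 1.07 for Epha2 and between 0.63 and 0.89 for Epha1. In CAG organoids the enterocyte sums were 8684 and 8985 CPM in WT and 19136 and 15419 CPM in KOCAG. There 10 of 12 markers were called higher, where 18.1% of all genes were. In IEC organoids the enterocyte sums were 11785 and 22053 CPM in WT and 7426 and 27619.9 CPM in KOIEC, and none of the 12 was called. There Epha2 was lower in the KOIEC library with the higher sum (19.4 against 45.4 CPM), while Epha1 was higher in it (106 against 56.6 CPM).

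**Figure D3:**
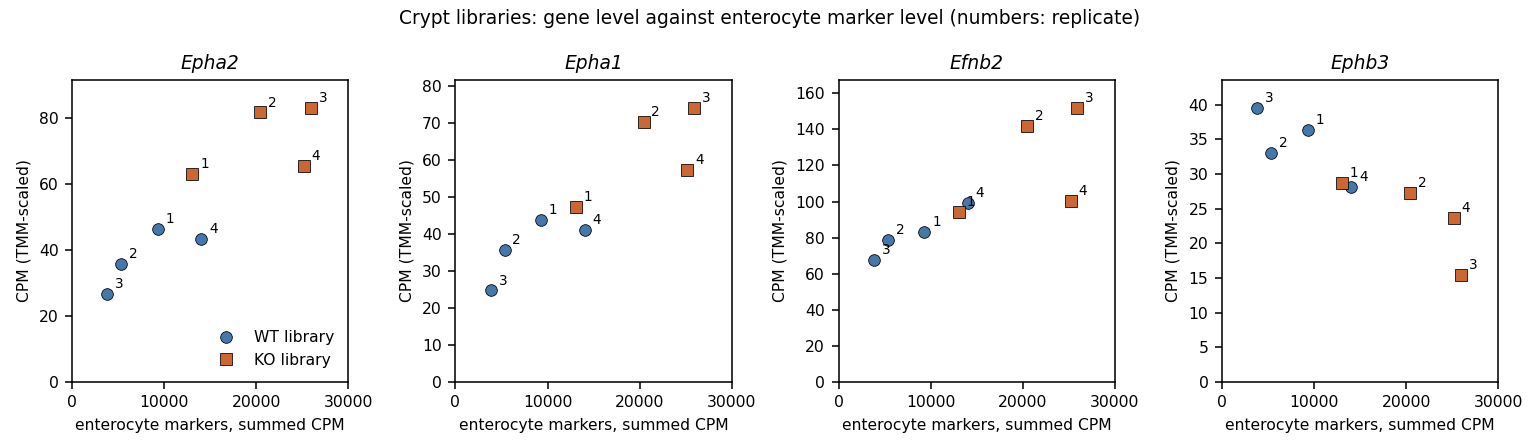
CPM of Epha2, Epha1, Efnb2 and Ephb3 in the 8 crypt libraries (linear axes) against the summed CPM of 12 enterocyte markers in the same library, with WT as circles, KOIEC as squares and replicate numbers beside the points. WT replicate 4 (14036 CPM) lies beside KOIEC replicate 1 (13056 CPM) on the marker axis, and in these 2 libraries, WT first, Epha2 was 43.3 and 63.1 CPM, Epha1 41.0 and 47.25 CPM, Efnb2 99.0 and 94.2 CPM, and Ephb3 28.1 and 28.8 CPM. The 2 libraries differ in mitochondrial ribosomal RNA, at 834 CPM (middle class) in WT replicate 4 and 18.9 CPM (low class) in KOIEC replicate 1.

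Of the class A ligands, Efna1 fell in CAG organoids and passed no test in crypts and IEC organoids. It had 50.9, 32.1, 36.7 and 48.9 CPM in WT crypts and 39.0, 34.4, 79.3 and 56.9 CPM in KOIEC crypts, with the groups overlapping and a log2 fold change of 0.31 (interval -0.28 to 0.90), against -0.10 in the low and 0.22 in the middle mitochondrial class. In CAG organoids Efna1 fell from 121 and 109.6 CPM in WT to 62.0 and 69.2 CPM in KOCAG, a log2 fold change of -0.81 (SE 0.09, edgeR adjusted p = 0.000190). IEC organoids had 137.5 and 125 CPM in WT and 101 and 223 CPM in KOIEC, so that 1 KO library was below and the other above both WT libraries. The log2 fold change of Efna1 there was 0.31, and it was -0.37 without KOIEC replicate 2 (edgeR adjusted p = 0.459) and 0.77 without KOIEC replicate 1, again a call on a lone KOIEC library (edgeR adjusted p = 0.0168). Efna1 and its receptor Epha2 thus moved in opposite directions in CAG organoids, each past the test.

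Efna4, the other class A ligand, was at 21.9, 16.4, 19.2 and 14.5 CPM in WT crypts and at 13.7, 10.8, 10.5 and 12.3 CPM in KOIEC crypts. All 4 KOIEC libraries were below all WT libraries, with a log2 fold change of -0.61 (SE 0.16) and an exact permutation p of 0.0286, but the edgeR adjusted p was 0.0523, and the DESeq2 Wald test gave an adjusted p of 0.0158. Efna4 differed by -0.91 on the log2 scale in the low and by -0.23 in the middle mitochondrial class. In IEC organoids Efna4 was 24.7 and 28.0 CPM in WT and 10.4 and 20.2 CPM in KOIEC, also without overlap (log2 fold change -0.79, SE 0.37, edgeR adjusted p = 0.856). Without KOIEC replicate 2 the value was -1.34 and without KOIEC replicate 1 it was -0.39, and neither passed the test (edgeR adjusted p = 0.191 and 0.233). CAG organoids showed no such difference, with 33.6 and 31.2 CPM in WT and 33.9 and 32.0 CPM in KOCAG (interval of the log2 fold change -0.23 to 0.28). An antisense gene that shares 168 exonic bases with Efna4 had at most 9 counts in a library.

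Of the class B ligands, Efnb2 had 83.1, 78.6, 67.5 and 99.0 CPM in WT crypts and 94.2, 142, 152 and 100.3 CPM in KOIEC crypts. KOIEC replicate 1 was below WT replicate 4, and the log2 fold change of 0.57 (SE 0.18) did not pass the test (edgeR adjusted p = 0.0715, exact permutation p = 0.0571). With the enterocyte level as a covariate it was 0.13 (edgeR adjusted p = 0.902), and between the 1 and 1 libraries of the middle mitochondrial class 0.02, against 0.61 in the low class. In CAG organoids Efnb2 rose from 94.3 and 100.4 CPM in WT to 170.2 and 142 CPM in KOCAG, a log2 fold change of 0.68 (SE 0.10, edgeR adjusted p = 0.000786). In IEC organoids it was 184 and 126 CPM in WT and 211 and 383 CPM in KOIEC, a log2 difference of 0.93 (SE 0.36) with an edgeR adjusted p of 0.856. As with Ephb3, that difference was called without KOIEC replicate 1 (1.30, edgeR adjusted p = 0.0138) and not without KOIEC replicate 2 (0.44, edgeR adjusted p = 0.578).

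Efnb1, the ligand with the narrowest spread in WT libraries, had 120.0, 121, 113 and 113 CPM in WT crypts and 127, 149.6, 132 and 119 CPM in KOIEC crypts. Its log2 fold changes were 0.18 (SE 0.09) in crypts, 0.50 (SE 0.17) in IEC organoids and 0.19 (SE 0.09) in CAG organoids, and none passed the test (edgeR adjusted p = 0.220, 0.856 and 0.144). In IEC organoids the 2 KOIEC libraries, at 148 and 179 CPM, were above both WT libraries, at 115 and 116 CPM. That difference was not called without KOIEC replicate 2 (0.36, edgeR adjusted p = 0.445) and was called without KOIEC replicate 1 (0.63, edgeR adjusted p = 0.0232). In crypts Efnb1 differed by 0.18 in the low and by 0.076 in the middle mitochondrial class. In CAG organoids both KOCAG libraries, at 132 and 112 CPM, were also above the WT libraries, at 106 and 107 CPM, and the difference was called without KOCAG replicate 2 (0.30, edgeR adjusted p = 0.00422), in a fit with 1 KOCAG library whose spread within groups comes from the 2 WT libraries alone. Of all genes tested, 38.9% in IEC organoids and 69.7% in CAG organoids had groups of 2 that did not overlap, against 4 and 7 of the 9 members.

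The sum of the receptors Ephb2 and Ephb3 over the sum of the ligands Efnb1 and Efnb2, in CPM per kilobase within a library, describes the balance of the crypt-base receptors and their villus-side ligands. In crypts this ratio was 0.333, 0.345, 0.382 and 0.271 in WT and 0.281, 0.226, 0.142 and 0.211 in KOIEC, with KOIEC replicate 1 above WT replicate 4. In IEC organoids it was 0.331 and 0.449 in WT and 0.236 and 0.123 in KOIEC, and in CAG organoids 0.741 and 0.681 in WT and 0.484 and 0.576 in KOCAG, without overlap in either. The WT mean was 0.333 ± 0.0464 (SD, n = 4) in crypts, 0.390 ± 0.0833 (n = 2) in IEC organoids and 0.711 ± 0.0423 (n = 2) in CAG organoids, and the KO means were 0.215 ± 0.0571, 0.179 ± 0.0802 and 0.530 ± 0.0647. With the transcript lengths, an alternative added after the values were seen, the WT means were 0.640, 0.714 and 1.23 and the KO means 0.416, 0.346 and 0.891, so that the size of the ratio, and whether it is above 1 in WT CAG organoids, depends on the lengths used. KOIEC replicate 1 of the crypts (0.549) was again above WT replicate 4 (0.515), and the organoid groups again did not overlap. The ratio was formed after the values were seen and carries no test, and its terms moved unequally: Ephb3 had the largest fall of these genes in IEC organoids, while in CAG organoids Efnb2 alone of them passed the test.

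**Figure D4:**
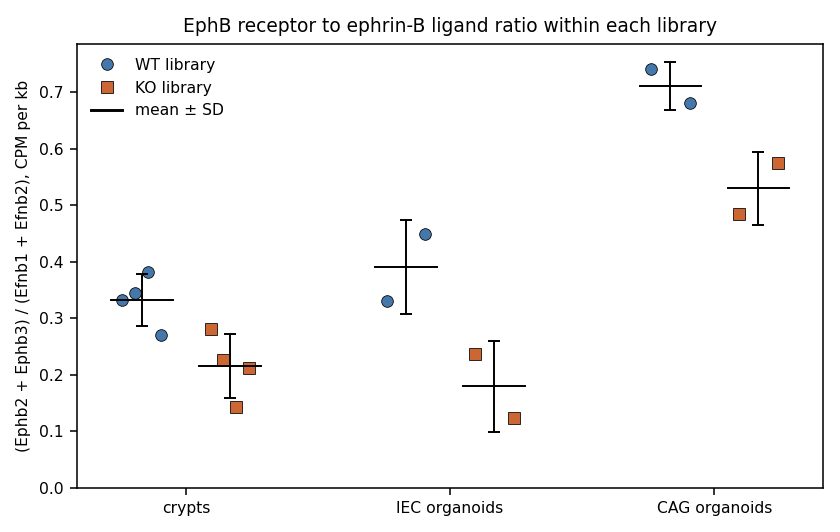
Ratio of Ephb2 plus Ephb3 to Efnb1 plus Efnb2 (CPM per kilobase, linear axis from 0) in each library, with WT as circles, KO as squares and the mean ± SD as bars. The KO libraries lie lower than the WT libraries of their experiment, except for KOIEC replicate 1 of the crypts (0.281), which is above WT replicate 4 (0.271).

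The effects on the members were compared between experiments as interaction terms in 1 edgeR fit of all 16 libraries over 15585 genes. None of the 9 members differed at an adjusted p under 0.05 between crypts and IEC organoids, between crypts and CAG organoids or between IEC and CAG organoids, where 0.00642%, 0.372% and 0.385% of all genes did. The largest difference was that of Epha2, whose effect in IEC organoids minus that in CAG organoids was -1.70 on the log2 scale (SE 0.45, edgeR adjusted p = 0.169). Ephb3 had -1.21 in the same contrast (SE 0.40, edgeR adjusted p = 0.279), and Efna1 had 1.14 for crypts minus CAG organoids (SE 0.48, edgeR adjusted p = 0.289). The unadjusted p-values (edgeR) of these 3 differences were 0.00227, 0.00993 and 0.0320. That of Epha2 in crypts minus IEC organoids (1.09, SE 0.39) was 0.0149 (edgeR). The counts of 0 moved without KOIEC replicate 1 of the IEC organoids, in a fit that leaves 1 KOIEC library there. The calls in CAG organoids and their absence in IEC organoids are therefore no evidence of a difference between the models for these genes, and the biological coefficient of variation was 0.28 in IEC organoids, 0.231 in crypts and 0.0815 in CAG organoids.

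Among the 13 other genes of the family, most were near the floor. In crypts 3 of them passed the filter on low counts, Epha4, Efna3 and Efnb3, and in each set of organoids 5 did. None was called in crypts or IEC organoids. Epha4, a receptor that binds ligands of both classes, rose in CAG organoids from 9.96 ± 0.899 to 18.8 ± 2.68 CPM (n = 2 and 2, log2 fold change 0.90, SE 0.18, edgeR adjusted p = 0.00418).

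A list of 42 genes that act downstream of Eph receptors, among them guanine nucleotide exchange factors, Src family kinases and adaptors, was read in the same fits. In crypts 3 of 40 tested were called higher and 1 lower, where 4.3% and 2.66% of all genes were, and the median log2 fold change was 0.17. Kalrn, an exchange factor that works with EphB receptors in neurons, went from 10.5 ± 4.90 to 36.2 ± 13.8 CPM in crypts (log2 fold change 1.78, edgeR adjusted p = 0.0407), Vav2, another exchange factor, rose by 0.59 (edgeR adjusted p = 0.0499) and the scaffold gene Gipc1 fell by 0.55 (edgeR adjusted p = 0.0455). The fourth call, Rock2, a protein kinase gene named after its value was seen, had a log2 fold change of 0.44 (edgeR adjusted p = 0.0420). In CAG organoids 10 of 41 were called higher and 4 lower, where 18.1% and 13.4% of all genes were, with a median of 0.16, and the largest were Kalrn (1.31), the cofilin kinase Limk1 (1.03) and the adaptor gene Shb (0.65). None of 40 was called in IEC organoids, where the median was 0.12.

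Wnt target genes, read beside Ephb2 and Ephb3, had negative median log2 fold changes in crypts and IEC organoids and were called in both directions in CAG organoids. Of 14 tested from a list of 16, none was called higher and 2 lower in crypts, the stem cell genes Lgr5 (log2 fold change -0.74, edgeR adjusted p = 0.0379) and Ascl2 (-0.67, edgeR adjusted p = 0.0499), with a median of -0.31. Over all genes in crypts, 4.3% were called higher and 2.66% lower. In CAG organoids 5 were called higher and 2 lower, where 18.1% and 13.4% of all genes were. The receptor gene Tnfrsf19 (2.32) and the Wnt feedback gene Nkd1 (1.41) rose most, and Lgr5 fell by 1.25 on the log2 scale. In IEC organoids none of the 14 was called, with a median of -1.16 and all values below 0 (-3.59 to -0.26), against a range of -0.78 to 0.30 in crypts. In the 2 experiments where Lgr5 was called lower, Ephb2 and Ephb3 were not, which is no test of a difference between these genes. The log2 fold changes of Ephb2 and Ephb3 were -0.25 and -0.53 in crypts and -0.11 and -0.02 in CAG organoids. In IEC organoids, where Cul4b alone was called, Lgr5 had -1.50, Ephb2 -0.16 and Ephb3 -1.25.

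Likeness between genes was measured as the root mean square difference in log2 CPM, centred on the mean of each experiment, over the 16 libraries and 12477 genes tested in all 3 experiments. The genes nearest to Ephb2 were Tcf3 (0.105), Riox1 (0.106) and Actn1 (0.107), where the median over all genes was 0.316. Ephb3 was nearest to Nt5dc2 (0.139), Sorbs2 (0.145) and Nme4 (0.156), against a median of 0.515. Efnb1 was nearest to Med15 (0.0522), Slc37a1 (0.0682) and Ifnar1 (0.0683), against a median of 0.312. A gene that did not vary would lie at 0.213 from Ephb2, 0.467 from Ephb3 and 0.171 from Efnb1. Among the members themselves, the receptors Ephb2 and Ephb4 were the closest pair, at 0.138, and the ligand Efnb2 lay about as far from the receptor Epha1 (0.285) as from the ligand Efnb1 (0.296).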

How the data were processed

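RNA-seq counts of 16 libraries in 3 experiments were used. Per the labels, processing used HISAT2 2.0.5 and featureCounts 1.5.0-p3; the authors deposited raw counts per gene, one table per experiment, with gene lengths in bases as a further column. Build, annotation and strand use are not given in the sources used here; 95.2%, 98.3% and 95.2% of the genes in the 3 tables have the start and end of GENCODE M21 (GRCm38). Groups came from the labels.

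Each experiment was fitted by itself in edgeR 4.0.16 (R 4.3.3) with filterByExpr, TMM factors and the quasi-likelihood F test, Benjamini-Hochberg over all genes. CPM is relative to the counts of tested genes, TMM-scaled; log2 CPM has a prior count of 2; SE is the log2 fold change over the square root of F. Ephb3 has a length of 6289 bases in 2 tables and 6641 bases in the other. The exact permutation test, two-sided, compared mean log2 CPM in crypts only, since its smallest p is 0.333 for 2 against 2. The study used DESeq2 with a 2-fold threshold; both were alternatives here, with DESeq2 1.42.0. The study describes the libraries of a group as biological replicates. The labels do not name the animal or culture behind each library, so p-values measure the spread between these libraries; no pair of replicates agreed within counting noise.

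The members and lists were chosen with earlier results of these data known. Named genes were the 9 members, other family genes called in any experiment, up to 3 called genes with the largest change per list and experiment, and the 3 genes nearest to Ephb2, Ephb3 and Efnb1. Marker lists for stem, Paneth, enterocyte, goblet, enteroendocrine, tuft, proliferating, endothelial, mesenchymal and immune cells were read in the same fits. Scripts were tested on simulated data.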

Additional observations from a re-analysis of the deposited data

How the results depend on the processing

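Of the values for single members under the alternatives, 297 kept their direction and their side of the threshold, 24 missed the threshold, 16 passed it and 14 changed sign. In crypts 2 members were called, against 0 at 2-fold or more, 1 with DESeq2 size factors and 1 with library size alone (where the median of all genes moved to -0.09). It was 3 without a filter, 3 with at least 10 counts in every library and 4 with the DESeq2 Wald test. It was 0 with the mitochondrial class and 0 with the enterocyte level as a covariate, and 0 to 4 without each library. The calls over all genes moved as well, from 934 of 13427 in the main fit. They were 790 with DESeq2 size factors, 635 with library size alone, 1479 of 30118 without a filter and 1114 of 12073 with at least 10 counts. With the DESeq2 Wald test they were 2362 of 13140, with the 2 covariates 2 and 1, and without each library 2 to 2468. In IEC organoids the count was 0, and without a filter Ephb3 and Efnb2 passed the threshold (edgeR adjusted p = 0.00115 and 0.0112). Leaving out an organoid library leaves 1 library in its group, so counts from those fits are not given. In CAG organoids the count was 5, against 1 at 2-fold or more and 1 in the fit of all 16 libraries. Over all genes there, 31.5% were called in the main fit and 8.6% at 2-fold or more. The shares of all genes called without a filter in IEC organoids and in the fit of all 16 libraries are not given here. Over its alternatives the edgeR or DESeq2 adjusted p ran from 0.000139 to 0.682 for Epha2 and from 0.00472 to 0.816 for Epha1 in crypts, with the same direction in each. The interaction counts of 0 moved most without KOIEC replicate 1 of the IEC organoids, a fit that leaves 1 KOIEC library there. The causes of these shifts were not tested.

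Log2 values that changed sign were, with the enterocyte level, Ephb2 (0.098) and Efna1 (-0.34) in crypts. In IEC organoids they were Ephb4 with library size (-0.051), without a filter (-0.0034) and with 10 counts (-0.0044), and without each library Ephb4 (-0.092 to 0.088), Epha1 (-0.19 to 0.71), Epha2 (-0.88 to 0.35) and Efna1 (-0.37 to 0.77). In CAG organoids it was Efna4 with library size (-0.0090) and without each library (-0.037 to 0.064).

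Replicate numbers were shared between groups, and the deviations of same-numbered crypt libraries correlated at -0.044, 0.190, -0.395 and 0.434. These values cannot show whether same-numbered crypt libraries share a litter or a preparation. The study calls the WT mice of its crypt comparisons littermates, and the labels do not pair the libraries. In groups of 2 the deviations from the group mean mirror each other, so both pairs of an experiment must give the same correlation. It was 0.342 in IEC organoids and 0.067 in CAG organoids. That each library was best with its own number follows from the positive sign alone, so these values cannot show pairing. With the replicate block 0 members were called in crypts, 0 in IEC organoids and 5 in CAG organoids, and 4, 1 and 4932 genes in all. In crypts 2 of 4 libraries correlated best with their own number. With 2 against 2 libraries, intervals in IEC organoids are wide, and an absent call there does not bound the effect closely.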

Other observations

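Markers of the remaining cell types were read in the same fits. The 6 tuft cell markers, of which 5 were tested, summed to 36.3 to 55.5 CPM in WT crypts and 40.1 to 257 CPM in KOIEC crypts, and none of the 5 was called (median log2 fold change 1.12). In CAG organoids 6 of 6 goblet, 7 of 7 enteroendocrine and 6 of 7 Paneth cell markers were called higher, with median log2 fold changes of 0.66, 1.28 and 0.96, beside 10 of 12 enterocyte markers (median 1.22), 2 of 5 tuft markers higher, 1 stem cell marker higher and 4 lower of 8, and 2 of 6 proliferation markers lower. Over all genes in CAG organoids, 18.1% were called higher and 13.4% lower. In crypts none of the 6 goblet, 7 enteroendocrine, 7 Paneth or 6 proliferation markers was called, and 3 of 8 stem cell markers were called lower, where 2.66% of all genes were. In IEC organoids no marker of any of these types was called.

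Of the markers of cells outside the epithelium, few endothelial and mesenchymal ones passed the filter on low counts, while most immune ones did in crypts. In crypts 1 of 6 endothelial, 2 of 8 mesenchymal and 6 of 7 immune markers were tested and none was called; the immune sums were 12.6 to 46.1 CPM in WT and 18.2 to 86.0 CPM in KOIEC. In CAG organoids 1 immune marker was tested and called higher, with the immune sum at 0.648 to 0.723 CPM in WT and 3.94 to 6.39 CPM in KOCAG.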
